A study of Mus musculus with 54 samples.

Results

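The mitochondrial genome carries its own genes, and mouse gene symbols mark them with the prefix mt-. All rows with that prefix were taken from the gene-level tables of a mouse cerebellum RNA-seq series, a rule that uses the symbol and no measured value. They were 27 of the 21048 features found in any table, namely 13 messenger RNAs (mRNAs), 2 ribosomal RNAs (rRNAs) and 12 of the 22 transfer RNAs (tRNAs) in the annotation of 37 mitochondrial genes. The table of mice aged 9 weeks held 21 of them, the table of postnatal day 28 (P28) held 27 and that of postnatal day 5 (P5) held 24. Each table was tested after a filter on low levels, which the 13 mRNAs and both rRNAs passed at every age. Of the tRNAs, 6 of 6 passed at 9 weeks, 9 of 12 at P28 and 3 of 9 at P5.

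The series compared whole cerebellum of mice labelled Control with mice whose genotype labels end in Nes-cre, a Cre recombinase driven by regulatory sequence of Nestin, a gene of neural progenitors. At 9 weeks there were 7 Control and 7 RnaseH2B Nes-cre libraries of total RNA. The P28 set, marked as poly-A enriched RNA, had Control, RnaseH2B Nes-cre, Atm Nes-cre and RnaseH2B,Atm Nes-cre with 5 libraries in each. The P5 set, again of total RNA, had 3 libraries in each of Control, RnaseH2B Nes-cre, Atm Nes-cre and p53 Nes-cre and 4 in each of RnaseH2B,Atm Nes-cre and RnaseH2B,p53 Nes-cre. The labels state no allele of the Control mice, and they do not say that replicates were separate animals, so p-values measure the spread between these libraries only. Cells outside the Nestin lineage, such as microglia and blood vessels, are part of whole cerebellum and are not expected to carry the Cre deletion.

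RNase H2 removes ribonucleotides from DNA, Atm is a kinase of the response to DNA breaks and p53 (Trp53) a transcription factor of the same response. Mitochondrial DNA is a small circle that is transcribed from both strands into long precursors. The tRNAs lie between most of the other genes and are cut out, which frees the mRNAs and rRNAs. The mRNAs encode core subunits of the respiratory chain and of ATP synthase, the rRNAs build the mitochondrial ribosome, and most of these RNAs receive short poly-A tails that differ in length between genes. Neighbouring genes can overlap, so part of a read may belong to either.

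Sequences of the members whose reads can be confused with a neighbour, and of the tRNAs that passed a test, are given here from the GENCODE M21 transcripts of GRCm38, all on the mitochondrial chromosome and each a single exon. The deposited tables were made on mm9, so no coordinates are given. In mt-Atp8 the capitals mark the 43 bases shared with the start of mt-Atp6, and in mt-Nd5 they mark the 14 bases at its end that pair with the end of mt-Nd6 on the other strand.
mt-Atp8: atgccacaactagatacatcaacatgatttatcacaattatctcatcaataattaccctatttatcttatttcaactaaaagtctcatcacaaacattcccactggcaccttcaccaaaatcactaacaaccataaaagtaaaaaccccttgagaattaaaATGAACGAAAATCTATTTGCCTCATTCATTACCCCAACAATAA
mt-Nd5 last 40 bases: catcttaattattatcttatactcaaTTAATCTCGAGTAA
mt-Ty: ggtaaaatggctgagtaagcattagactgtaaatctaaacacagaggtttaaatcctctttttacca
mt-Te: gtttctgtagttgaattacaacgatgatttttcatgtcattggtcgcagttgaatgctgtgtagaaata
mt-Ta: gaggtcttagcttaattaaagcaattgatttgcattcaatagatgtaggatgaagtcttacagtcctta
mt-Tp: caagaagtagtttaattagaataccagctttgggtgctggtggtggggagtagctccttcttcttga
mt-Tm: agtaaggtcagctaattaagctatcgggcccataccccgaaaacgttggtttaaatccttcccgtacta
mt-Ts1: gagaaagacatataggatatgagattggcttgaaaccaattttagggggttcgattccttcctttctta
mt-Tw: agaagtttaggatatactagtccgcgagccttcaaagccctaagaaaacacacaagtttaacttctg

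Values are read counts scaled to library size on the log2 scale (log2 CPM) unless another scale is named, differences are group means subtracted on that scale with their standard error (SE), and a gene rose or fell where limma's adjusted p over all tested features of the age was below 0.05. Library totals in gene rows ran from about 24100000 to 89700000 reads at P28 and from about 48200000 to 95100000 at P5. One P5 library, RnaseH2B,p53 Nes-cre replicate 3, did not show single-read steps, so its total is not known, and the totals at 9 weeks could not be recovered. Rnaseh2b RNA fell by 1.02 at 9 weeks, by 1.72 at P28 and by 2.27 at P5 in RnaseH2B Nes-cre against Control, and Trp53 fell by 2.07 in p53 Nes-cre at P5. Atm RNA differed from Control by -0.04 ± 0.07 (SE) at P28 and -0.30 ± 0.21 at P5 in the libraries labelled Atm Nes-cre, neither of which passed limma's test, so its gene-level value does not check that label. In RnaseH2B,Atm Nes-cre at P28 Atm fell by 0.78. For that group against Control 63.6% of all features were called and 32.1% were called lower, so this fall does not check the label either.

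The mt- rows took 3.02 to 5.16% of the gene-level CPM at P28, 4.35 to 6.04% at 9 weeks and 1.92 to 2.91% at P5. The rRNAs made up 50.5 to 63.0% of that in Control at 9 weeks and 50.4 to 51.8% at P5, but only 7.32 to 9.13% at P28. Age, poly-A enrichment and the separate processing of each table cannot be told apart in these levels. On the per-length scale of FPKM, in which counts are divided by gene length and library total, the P28 Control order was led by mt-Co1, a catalytic subunit of complex IV, with a median of 5277 and a range of 4946 to 7995. Next came mt-Cytb, the complex III cytochrome, with 4062, whose range did not overlap with that of mt-Co3, at 3433. The ranges of mt-Co3 and mt-Co2 (3324), both complex IV subunits, overlapped, and so did those of mt-Co2 and mt-Nd1 (3045). The rRNAs held places 13 and 14 of 37, with 1170 FPKM for mt-Rnr1 and 1166 for mt-Rnr2. They lay below most mRNAs and the tRNA mt-Tp (1371) and above the other tRNAs. mt-Nd6 was last of the mRNAs with 821. In P5 Control the first place went to mt-Rnr2 with 6115 FPKM, followed by mt-Co1 with 3400 and mt-Co3 with 2633, and the last mRNA was mt-Nd4l, a small complex I subunit, with 19.9. Both orders leave out reads given to identical nuclear copies. Gm10222, a copy of mt-Nd4l, had a mean of 9.29 log2 CPM in P28 Control and 2.765 in P5 Control, and mt-Nd4l 8.81 and 2.18. Gm10925, a copy of mt-Atp6, had 11.76 and 8.54, and mt-Atp6 10.81 and 7.89. The orders can therefore depend on how shared reads were assigned. FPKM values at 9 weeks were shifted by the authors, some below 0, and give no order.

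**Figure D1:**
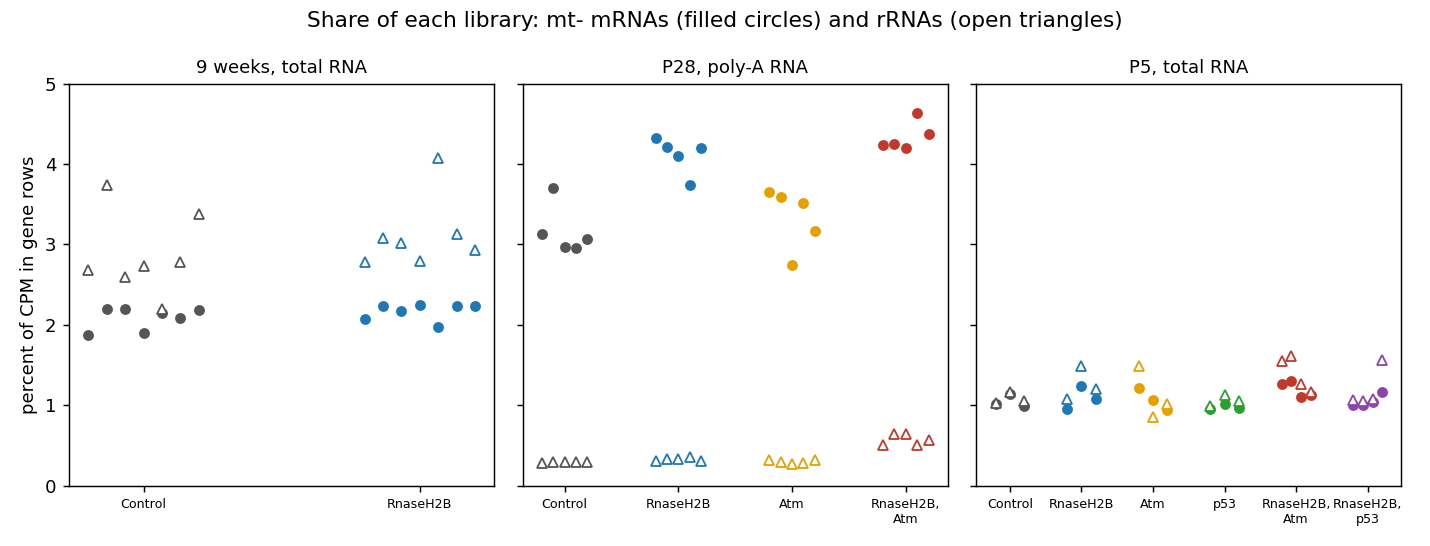
Percent of the summed CPM of gene rows taken by the 13 mt- mRNAs (filled circles) and the 2 mt- rRNAs (open triangles) in every library, with genotype on the horizontal axis and 1 panel per age. In the P28 panel the rRNA share of the 5 RnaseH2B,Atm Nes-cre libraries, 0.51 to 0.65%, lies above all other libraries of that panel.

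At P28 both mitochondrial rRNAs rose in the compound mutant and in neither single genotype. mt-Rnr1 is the small-subunit rRNA of the mitochondrial ribosome and mt-Rnr2 the large-subunit rRNA. mt-Rnr1 stood at 10.08, 10.09, 10.14, 10.15 and 10.19 log2 CPM in the 5 Control libraries and at 10.89, 11.24, 11.27, 10.91 and 11.02 in the 5 RnaseH2B,Atm Nes-cre libraries. In RnaseH2B Nes-cre it was at 10.07, 10.19, 10.27, 10.43 and 10.17, and in Atm Nes-cre at 10.29, 10.15, 10.02, 10.03 and 10.31. Both single genotypes overlapped with Control, and every compound mutant library lay above all 15 others.

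mt-Rnr2 followed the same order. Its Control values were 10.76, 10.89, 10.83, 10.86 and 10.87, and its RnaseH2B,Atm Nes-cre values were 11.61, 11.99, 11.92, 11.61 and 11.77 log2 CPM. RnaseH2B Nes-cre had 10.93, 11.03, 11.01, 11.12 and 10.96, all slightly above Control, while Atm Nes-cre had 10.96, 10.94, 10.69, 10.78 and 10.96, which overlapped with Control. On the FPKM scale the group means were 1149 ± 32.1 (SD, n = 5) in Control and 2256 ± 273 in the compound mutant.

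Against Control, mt-Rnr1 rose by 0.93 ± 0.08 (SE; limma adjusted p = 1.5e-08) and mt-Rnr2 by 0.94 ± 0.07 (adjusted p = 3.43e-09). Both rRNAs rose by 0.90 and 0.91 against Atm Nes-cre and by 0.84 and 0.77 against RnaseH2B Nes-cre. All 3 comparisons use the same compound mutant libraries. Of all tested features 23.5% were higher without overlap against Control, 21.5% against Atm Nes-cre and 18.5% against RnaseH2B Nes-cre, and 30% and 24.9% were called higher against these single genotypes. In the comparison with Control, 63.6% of all tested features were called and 31.5% were higher, so passing the test was common there. The 2 rRNAs were also called in the difference of effects, the effect of the RnaseH2B genotype with the Atm genotype minus its effect without it, which was 0.81 ± 0.12 for mt-Rnr1 (limma adjusted p = 3.46e-05) and 0.75 ± 0.10 for mt-Rnr2 (adjusted p = 2.62e-05), where 37.7% of features were called and 18.7% were called higher. In RnaseH2B Nes-cre alone they differed from Control by 0.09 ± 0.08 and 0.17 ± 0.07, with no call (smallest limma adjusted p = 0.168), and in Atm Nes-cre by 0.03 and 0.02 (smallest adjusted p = 0.867).

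The rRNA part of all mt- reads was 9.83 to 13.3% in the compound mutant, against 7.32 to 9.13% in Control, 6.56 to 8.80% in RnaseH2B Nes-cre and 7.40 to 9.25% in Atm Nes-cre. The balance between the rRNAs, mt-Rnr2 minus mt-Rnr1, had overlapping ranges of 0.68 to 0.79 log2 in Control and 0.65 to 0.75 in the compound mutant. Since these are poly-A enriched libraries, their mt- rRNA and mt- mRNA levels depend on what the selection keeps as well as on the amount of RNA. 7SK, a nuclear RNA without a poly-A tail, fell by 0.94 ± 0.13 in the compound mutant (limma adjusted p = 3.19e-06), where 63.6% of all features were called. It fell by 0.56 ± 0.13 in RnaseH2B Nes-cre (limma adjusted p = 0.0199), where 5.21% were called. A single RNA does not stand for all RNAs without a tail. The part of tail length or carry-over in the rRNA result, and in the mRNA results below, was not tested.

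Cell type markers moved in the same compound mutant libraries, where 63.6% of all features were called. Of the granule neuron list 6 of 7 tested genes fell (median -1.68), and the summed CPM of the list was 1171 to 2379 against 4842 to 5490 in Control. Its Atoh1 is not analysed here at P28. All 6 oligodendrocyte markers fell (median -0.67, summed 3003 to 8706 against 8419 to 9254), all 6 microglia markers rose (median 0.76, summed 167 to 216 against 108 to 117) and 5 of 7 Purkinje cell markers rose (median 0.34, summed 5596 to 7567 against 5203 to 5921). Of the other lists, all 5 erythroid markers fell (median -0.97, summed 397 to 902 against 568.2 to 1776), 3 of 5 endothelial markers rose (summed 158 to 188 against 141 to 151), and of the Bergmann glia and astrocyte markers 3 rose and 2 fell (summed 1900 to 2664 against 2106 to 2429). The 6 choroid plexus markers were higher by a median of 2.62 with none called, and their sum varied from 293 to 3022 in the compound mutant and from 15.2 to 619 in Control. Of 4 tested skeletal muscle markers 2 rose (summed 31.97 to 47.57 against 5.97 to 15.4). None of the markers of these lists with a value was at 0 reads in a P28 library. In bulk tissue fewer cells of a type and less RNA per cell cannot be told apart, and the part of cell composition in the mitochondrial results was not tested.

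**Figure D2:**
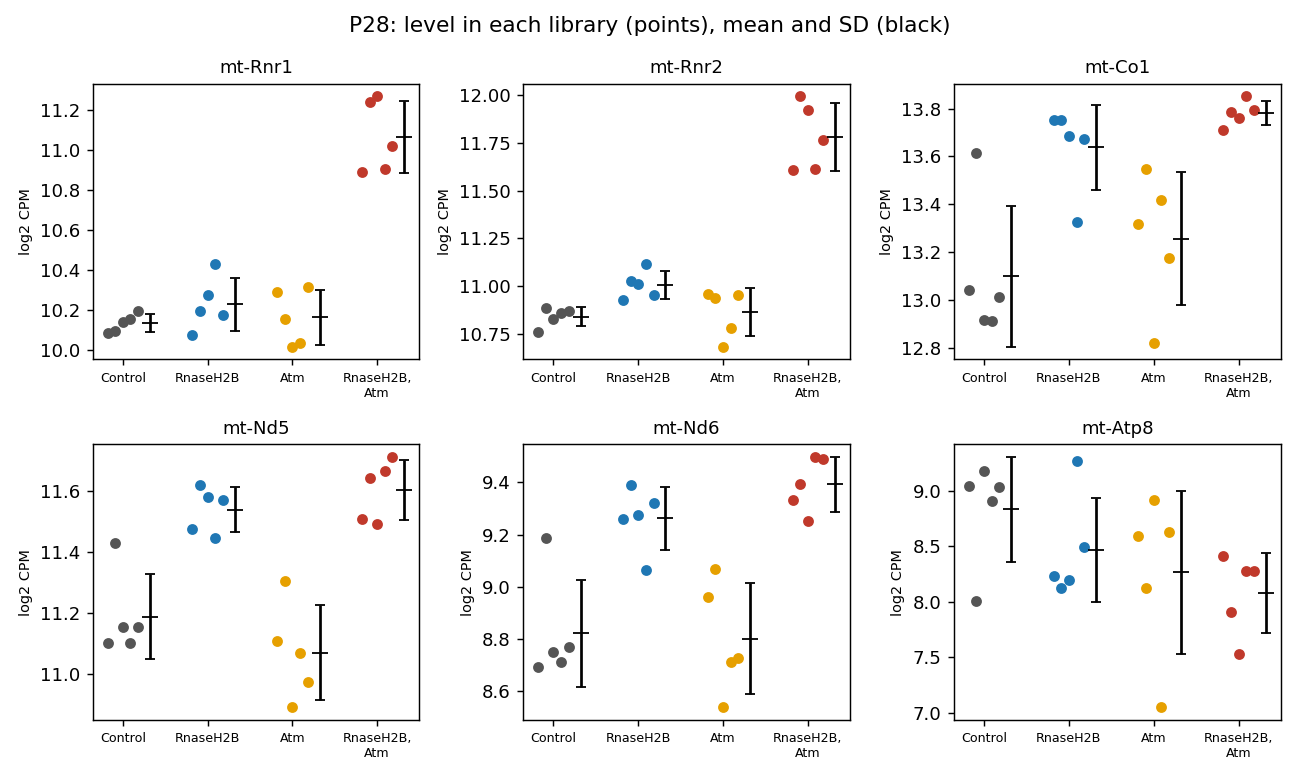
Log2 CPM of 6 mitochondrial genes in each of the 20 P28 libraries (points, by genotype), with the group mean and SD in black (n = 5 per group). Both rRNAs of RnaseH2B,Atm Nes-cre lie above all 15 other libraries, while mt-Co1, mt-Nd5 and mt-Nd6 lie higher in both genotypes with RnaseH2B and mt-Atp8 is widely spread in every group.

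The mRNAs followed another order. In RnaseH2B Nes-cre against Control at P28, 9 of the 13 mRNAs rose, where 5.21% of all features were called and 2.85% were called higher. 12 of the 13 were higher, with a median difference of 0.35 against -0.00 over all tested features, and the groups did not overlap for 4 of the 13 (8.2% of all features). The share of mRNAs in the library was 3.74 to 4.33% in RnaseH2B Nes-cre and 2.95 to 3.70% in Control. Of the cell type markers 1 was called in this comparison, Aqp4, the water channel of astrocytes, which rose by 0.50 ± 0.08 (limma adjusted p = 0.0045). The 7 granule neuron markers were all lower (median -0.29, summed 4014 to 4875 against 4842 to 5490 in Control), the 7 Purkinje cell markers all higher (median 0.23, summed 6241 to 7459 against 5203 to 5921) and the 6 choroid plexus markers all higher (median 0.72, summed 23.0 to 1798 against 15.2 to 619), none of them called. Sums of the Purkinje cell list did not overlap with Control, and those of all other lists with a value overlapped. The Bergmann glia and astrocyte list, for example, summed to 2332 to 2712 against 2106 to 2429. The part of any list in the mRNA result was not tested.

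Of the 7 complex I mRNAs, which encode membrane subunits of NADH dehydrogenase, 5 rose. mt-Nd5, a proton-pumping subunit, was at 11.10, 11.43, 11.15, 11.10 and 11.15 log2 CPM in Control and at 11.48, 11.62, 11.58, 11.45 and 11.57 in RnaseH2B Nes-cre. The 2 groups did not overlap, although Control replicate 2 came close to the lowest mutant library. mt-Nd5 rose by 0.35 ± 0.08 (limma adjusted p = 0.0172), mt-Nd1 by 0.37 ± 0.08 (adjusted p = 0.0171), mt-Nd2 by 0.48, mt-Nd4 by 0.41 and mt-Nd6 by 0.44. mt-Nd6, the only mRNA coded on the other strand, was at 8.69, 9.19, 8.75, 8.71 and 8.77 in Control and at 9.26, 9.39, 9.27, 9.07 and 9.32 in RnaseH2B Nes-cre, with Control replicate 2 inside the mutant range. The differences of mt-Nd3 (0.12 ± 0.10) and mt-Nd4l (0.03 ± 0.11) did not pass limma's test.

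Of the complex IV mRNAs, mt-Co1 was at 13.04, 13.62, 12.91, 12.91 and 13.01 in Control and at 13.75, 13.75, 13.68, 13.33 and 13.67 in RnaseH2B Nes-cre. Control replicate 2 was above RnaseH2B Nes-cre replicate 4, and all other Control libraries were below all mutant libraries. mt-Co1 rose by 0.54 ± 0.14 (limma adjusted p = 0.03) and mt-Co2, which accepts electrons from cytochrome c, by 0.25, while mt-Co3 differed by 0.12 ± 0.06 with no call. mt-Cytb of complex III rose by 0.17, from 12.19 to 12.27 in Control to 12.36 to 12.45 in RnaseH2B Nes-cre. Of the ATP synthase mRNAs, mt-Atp6 rose by 0.49 and mt-Atp8, which shares the capital bases above with it, was lower by a mean of 0.37 ± 0.31 without passing the test (limma adjusted p = 0.445).

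This count depended on single libraries. It was 0 without Control replicate 5 or without RnaseH2B Nes-cre replicate 2. It was 2 without Control replicate 3 or 4 or RnaseH2B Nes-cre replicate 1, and 3 without Control replicate 1 or RnaseH2B Nes-cre replicate 3. The median difference of the 13 mRNAs stayed between 0.33 and 0.40 in all of these, and calls over all features moved with it, from 861 to between 187 and 2564. On log2(FPKM + 0.1) and log2(FPKM + 1), 3 of the 13 mRNAs rose.

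In RnaseH2B,Atm Nes-cre against Control 9 mRNAs rose and 1 fell, and for 10 of 13 the groups did not overlap. In either direction 76.9% of the mRNAs were called where 63.6% of all features were (31.5% higher and 32.1% lower). Upward the mRNAs lay further from the background: 9 of 13 rose against those 31.5%, and all 10 without overlap were higher, against 23.5% of all features (45.6% in either direction). mt-Co1 was at 13.71, 13.79, 13.76, 13.85 and 13.80 in the compound mutant and rose by 0.68 ± 0.14 (limma adjusted p = 0.000231). mt-Atp6 rose by 0.66, mt-Nd6 by 0.57, mt-Nd4 by 0.48, mt-Nd2 by 0.47, mt-Nd1 and mt-Nd5 by 0.42 each, mt-Co2 by 0.33 and mt-Cytb by 0.17. mt-Atp8 fell by 0.75 ± 0.31 (limma adjusted p = 0.0387), a call that 9 of 20 alternatives did not keep.

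The same 9 genes rose in the compound mutant against Atm Nes-cre, where 61% of features were called, with mt-Nd6 at 0.59 ± 0.10 (limma adjusted p = 4.51e-05) and mt-Nd5 at 0.53 ± 0.08 (adjusted p = 6.66e-06) in front. Against RnaseH2B Nes-cre none of the 13 mRNAs was called by limma, 1 had an unadjusted p below 0.05 and 49.5% of all features were called. Voom on recovered reads also called 0. The median difference there was 0.05, with mt-Atp6 the highest at 0.17 ± 0.14 and mt-Atp8 the lowest at -0.38 ± 0.31. In Atm Nes-cre against Control limma and voom called 0 of 13, with 0 at an unadjusted p below 0.05 and a median of 0.00, and 1.86% of features were called. The difference of effects was called for 0 of 13 mRNAs by limma and by voom, with 0 at an unadjusted p below 0.05. For the rRNAs it was called for both, as given above.

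**Figure D3:**
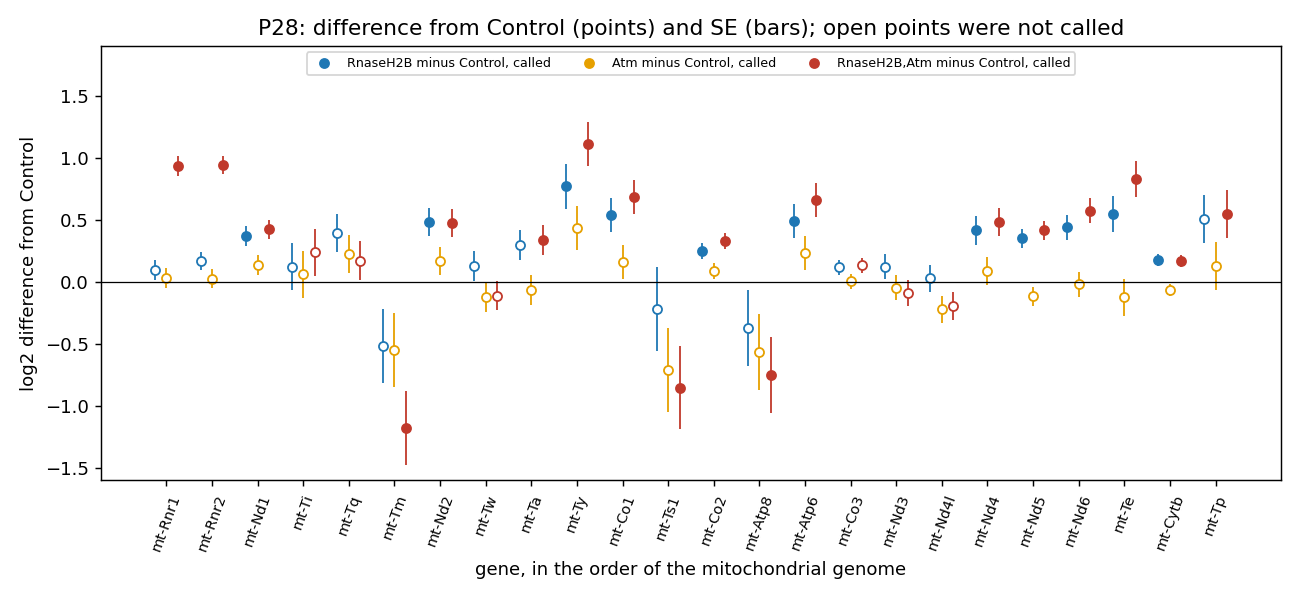
Log2 difference from Control at P28 (points) with its SE (bars) for the 24 tested mitochondrial genes in genome order, for RnaseH2B Nes-cre, Atm Nes-cre and RnaseH2B,Atm Nes-cre. Filled points passed limma's test; the rRNAs are filled in the compound mutant alone, near 0.93, and the 3 comparisons share their Control libraries.

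The P28 libraries also differed in the balance between long and short mitochondrial mRNA genes. Lengths here are those of annotated genes and not of RNA molecules. mt-Atp8 overlaps with mt-Atp6 by 43 bases and mt-Nd4l with mt-Nd4 by 7, so such rows need not be separate RNAs. mt-Co1 minus mt-Atp8, the most abundant long and the shortest mRNA gene, ranged from 3.74 to 6.37 log2 over the 20 libraries. Control replicate 2 stood at 5.61 with the other Control libraries at 3.74 to 4.0, and RnaseH2B Nes-cre replicate 4 stood at 4.06 with the others of its group at 5.18 to 5.62. Within Control, short nuclear genes moved with this difference through replicate 2. The short-minus-long value is the median deviation from gene means of nuclear genes up to 1727 nt minus that of genes from 5151 nt. It was -0.20 in Control replicate 2 and 0.12 to 0.20 in the other Control libraries. Across genotypes the 2 values did not always go together. RnaseH2B,Atm Nes-cre replicate 1 had a short-minus-long value of 0.11 and a mt-Co1 minus mt-Atp8 of 5.30, and Control replicate 5 had 0.12 and 3.98. No association was computed. All 6 mRNA genes of 900 nt or more rose in RnaseH2B Nes-cre and in the compound mutant. Among the 7 shorter genes 3 rose in each, with 1 falling in the compound mutant. With this short-minus-long value of each library as a covariate, chosen after seeing the data, 10 mRNAs rose in RnaseH2B Nes-cre against Control and the rRNA differences of effects were 0.80 and 0.76. In the compound mutant against RnaseH2B Nes-cre 3 short genes then fell, mt-Nd3 by 0.23, mt-Nd4l by 0.24 and mt-Atp8 by 0.43. mt-Nd4 and mt-Atp6, which overlap with mt-Nd4l and mt-Atp8, differed there by 0.08 and 0.19 with no call. In the difference of effects mt-Nd5 rose by 0.23.

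Among the tRNAs, which decode the mitochondrial mRNAs, mt-Ty (tyrosine) and mt-Te (glutamate) rose in RnaseH2B Nes-cre at P28, 2 of 9 tested tRNAs where 2.85% of all features were called higher. The rises were 0.77 ± 0.18 (limma adjusted p = 0.0218) for mt-Ty and 0.55 ± 0.15 (adjusted p = 0.0394) for mt-Te. mt-Ty was at 2.0, 2.86, 1.74, 1.95 and 2.37 log2 CPM in Control, at 2.96, 3.20, 3.12, 2.61 and 2.88 in RnaseH2B Nes-cre and at 3.29, 3.39, 3.29, 3.17 and 3.32 in the compound mutant. For mt-Ty only the compound mutant lay wholly above Control. mt-Te was at 3.55, 3.62, 3.64, 3.15 and 3.39 in Control and at 3.74, 4.12, 4.06, 3.72 and 4.43 in RnaseH2B Nes-cre. In the compound mutant mt-Te was at 4.26, 4.17, 4.24, 4.41 and 4.4, so both genotypes with RnaseH2B lay wholly above Control. There mt-Te rose by 0.83 ± 0.15 (limma adjusted p = 7.66e-05) and mt-Ty by 1.11 ± 0.18 (adjusted p = 2.49e-05), both without overlap. Of all features 8.2% did not overlap in RnaseH2B Nes-cre, and 23.5% were higher without overlap in the compound mutant.

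In the compound mutant 6 of the 9 tested tRNAs were called, 4 of them higher, a share near the 63.6% of all features called there. mt-Tp (proline) rose by 0.54 and mt-Ta (alanine) by 0.34, while mt-Tm (methionine) fell by 1.18 and mt-Ts1 (a serine tRNA) by 0.86. mt-Tm was at 2.99, 2.13, 3.52, 3.07 and 3.11 in Control and at 2.06, 1.62, 1.04, 2.22 and 1.96 in the compound mutant, and the groups overlapped through Control replicate 2. All 4 tRNAs that rose are coded on the minus strand, which holds 6 of the 9 tested tRNAs and mt-Nd6, and 1 of the 2 that fell, mt-Ts1, lies on it too. Whether strand was used in counting is not given in the sources used here, so their reads cannot be told apart from precursor RNA of the opposite strand. Against Atm Nes-cre, mt-Te (0.95), mt-Ty (0.68) and mt-Ta (0.40) rose, and against RnaseH2B Nes-cre no tRNA was called by limma, with 1 at an unadjusted p below 0.05. In Atm Nes-cre against Control no tRNA was called either, with 2 at an unadjusted p below 0.05. Whether these reads came from mature tRNAs or from precursors was not tested.

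Some nuclear genes are copies of mitochondrial ones and can take their reads. Gm10925 equals mt-Atp6 over all of its 678 nt and Gm10222 equals mt-Nd4l over all of its 294 nt, as found from exact runs of 50 bases. Gm10925 rose by 0.30 ± 0.07 in RnaseH2B Nes-cre (limma adjusted p = 0.0282) and by 0.37 ± 0.07 in the compound mutant (adjusted p = 0.000307) at P28, as mt-Atp6 did. Gm10222 rose by 0.26 ± 0.06 in RnaseH2B Nes-cre (limma adjusted p = 0.0259), where mt-Nd4l was not called, and differed by 0.13 ± 0.06 in the compound mutant without a call. With the reads of these 2 copies added, mt-Atp6 rose by 0.37 and 0.47 and mt-Nd4l still did not pass the test. The partial copies went the other way: Gm13340, which matches mt-Co1 over 55.1% of its length, fell by 0.96 ± 0.35 in the compound mutant (limma adjusted p = 0.0222), and Gm13341, which matches mt-Co2 over 62.5%, fell by 0.69 ± 0.26 (adjusted p = 0.026), whereas mt-Co1 and mt-Co2 rose. In RnaseH2B Nes-cre they differed by -0.45 ± 0.35 and -0.43 ± 0.26 with no call. Gm13339 and Gm11407, with shorter matches to mt-Nd2 and mt-Nd5, were called in neither comparison.

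Nuclear genes that serve the mitochondrial genome were read from lists chosen by function. In RnaseH2B Nes-cre against Control at P28 none of the 24 genes of mitochondrial DNA maintenance and transcription, the 24 of mitochondrial RNA processing, the 10 biogenesis regulators or the 82 nuclear-encoded subunits of the respiratory chain and ATP synthase was called. Over all features 5.21% were called in that comparison, so a list of 10 or 24 genes without a call says little. The median of the 82 was -0.09. Tfam, which packs and helps transcribe mitochondrial DNA, differed by 0.03 ± 0.04, Polrmt, the mitochondrial RNA polymerase, by -0.30 ± 0.18 and Rnaseh1, the RNase H found in mitochondria, by -0.22 ± 0.10.

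In the compound mutant against Control 63.6% of all features were called, 31.5% higher and 32.1% lower. Of the 24 maintenance and transcription genes 4 rose and 10 fell there (median -0.14). Polrmt fell by 0.92 ± 0.18 (limma adjusted p = 0.000207), Polg2, an accessory subunit of the mitochondrial DNA polymerase, by 1.05, Dguok, a mitochondrial deoxynucleoside kinase, by 0.89 and Rnaseh1 by 0.34. Rrm2b, a ribonucleotide reductase subunit and p53 target, rose by 0.59, Tk2, a mitochondrial thymidine kinase, by 0.33, and Tfam differed by 0.03 ± 0.04. Of the RNA processing genes 6 rose and 6 fell, among them Grsf1, a protein of mitochondrial RNA granules (0.58 ± 0.05, limma adjusted p = 3.2e-09), Nsun4, an rRNA methyltransferase (0.37), and Lrpprc, which stabilises mitochondrial mRNAs (0.22), all of which rose. Of the 82 nuclear-encoded subunits 14 rose and 10 fell (median -0.10), a smaller share than the 63.6% of all features, and of the 10 biogenesis regulators 2 rose, Ppargc1a by 0.60 among them, and 6 fell.

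At 9 weeks none of the 21 mitochondrial RNAs was called between RnaseH2B Nes-cre and Control, where 20.2% of all features were. The 13 mRNA differences ran from -0.17 ± 0.14 for mt-Nd2 to 0.10 ± 0.07 for mt-Nd3 (median -0.02), 6 were higher, and the smallest limma adjusted p was 0.315. No mRNA or rRNA and 1 tRNA, mt-Tp (0.38 ± 0.16, limma adjusted p = 0.0896), had an unadjusted p below 0.05. mt-Rnr2 had a lowest, median and highest level of 14.22, 14.50 and 14.91 in Control and of 14.54, 14.65 and 15.14 in RnaseH2B Nes-cre. mt-Rnr1 had 11.10, 11.90 and 12.71 in Control and 11.52, 11.91 and 12.27 in RnaseH2B Nes-cre. mt-Co1 had 13.003, 13.26 and 13.31 against 13.21, 13.31 and 13.44, and all 3 genes overlapped widely. Within each of the 2 ranges of sample codes in the labels, of 6 and 8 libraries, the count was 0 as well.

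Of the nuclear-encoded subunits at 9 weeks 10 of 82 were called higher and 1 lower (median 0.09), where 10.6% of all features were called higher and 9.57% lower. The share called higher was near that background. Of the biogenesis regulators 1 rose and 5 fell, of the DNA maintenance genes 2 rose and 3 fell, and of the RNA processing genes 2 of 24 fell. Gm13340, the partial copy of mt-Co1, rose by 0.35 ± 0.08 (limma adjusted p = 0.00714), while mt-Co1 itself differed by 0.09 ± 0.08.

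At P5 none of the 13 mRNAs or 2 rRNAs was called by limma or by voom in any of 9 comparisons or 2 differences of effects. The pooled SD of the mean mRNA level between libraries of a group was 0.18 at P5 and 0.09 at P28. With 3 or 4 libraries per group at P5, a change of the size seen at P28 could be missed. The share of all features called was 0.681% for RnaseH2B Nes-cre, 0% for Atm Nes-cre, 0.175% for p53 Nes-cre, 9.86% for RnaseH2B,Atm Nes-cre and 0.428% for RnaseH2B,p53 Nes-cre against Control, so few features were called outside RnaseH2B,Atm Nes-cre. It was 9.5% for RnaseH2B,Atm Nes-cre against Atm Nes-cre, 0.188% for RnaseH2B,p53 Nes-cre against p53 Nes-cre and 2.04% for RnaseH2B,Atm Nes-cre against RnaseH2B Nes-cre. In the differences of effects it was 0% with Atm and 0.00648% with p53. The median mRNA differences from Control, which share the Control libraries, were 0.10, 0.05, -0.03, 0.18 and 0.08 in that order. No mRNA had an unadjusted p below 0.05 in those 5, and 1 did in each of the compound RnaseH2B,Atm Nes-cre comparisons with a single genotype.

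The compound RnaseH2B,Atm Nes-cre had all 13 mRNAs higher at P5, from 0.08 ± 0.16 for mt-Nd5 to 0.26 ± 0.16 for mt-Nd6 (smallest limma adjusted p = 0.189). mt-Rnr2 was at 12.77, 13.06 and 12.84 in Control, at 12.84, 13.35 and 13.01 in RnaseH2B Nes-cre, at 13.41, 12.56 and 12.79 in Atm Nes-cre and at 13.37, 13.45, 13.10 and 12.98 in RnaseH2B,Atm Nes-cre. The compound group overlapped with Control by 1 library on each side. The differences were 0.34 ± 0.19 for mt-Rnr2 and 0.27 ± 0.23 for mt-Rnr1, with no call. Control replicate 2 and Atm Nes-cre replicate 1 stood apart from their groups over all genes. Without both, a choice made after seeing the data, mt-Nd1 (0.30), mt-Nd3 (0.32), mt-Co2 (0.30) and mt-Atp6 (0.27) rose, where 6380 of 15421 features were called in place of 1520.

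Of the 3 tested tRNAs, 2 passed the test at P5, in RnaseH2B,p53 Nes-cre against RnaseH2B Nes-cre, where 3.02% of all features were called, 1.12% were called higher and 22.9% did not overlap. mt-Tw (tryptophan) was at -0.95, -0.73 and -1.19 in RnaseH2B Nes-cre and at 0.16, 0.17, 0.22 and 0.47 in RnaseH2B,p53 Nes-cre, and rose by 1.21 ± 0.19 (limma adjusted p = 0.00567). It reached 1 CPM in those 4 RnaseH2B,p53 Nes-cre libraries and 1 other, so it entered the test through the group in which it is high, and its count among called members supports nothing. With no filter on low levels its limma adjusted p was 0.00514. In RnaseH2B Nes-cre mt-Tw had its lowest group mean at P5, -0.96. It was also higher, with no call, in RnaseH2B,p53 Nes-cre against Control (0.86, limma adjusted p = 0.059). So it was in RnaseH2B,Atm Nes-cre against RnaseH2B Nes-cre (0.77, limma adjusted p = 0.0524). mt-Tp was at -0.28, -0.03 and -0.99 and at 0.63, 0.74, 0.42 and 0.82, and rose by 1.09 ± 0.27 (adjusted p = 0.0388). The groups did not overlap for either tRNA, but the levels are near 1 CPM, and 1 of 18 alternatives lost the mt-Tw call and 8 of 18 the mt-Tp call. The difference of effects with p53 was not called for either (smallest adjusted p = 0.355). Markers of the medulla and pons summed to 8.70 to 34.8 CPM in RnaseH2B Nes-cre and 0.317 to 7.53 in RnaseH2B,p53 Nes-cre. Also lower there without overlap were oligodendrocyte (249.5 to 531.8 against 732.9 to 1964), microglia (113 to 123 against 134 to 149) and endothelial markers (151 to 165 against 182 to 201). So were Bergmann glia and astrocyte (1316 to 1477 against 1508 to 1775) and skeletal muscle markers (6.22 to 17.5 against 17.8 to 30.2). Midbrain markers were higher there (89.1 to 103.6 against 41.3 to 70.1). Sums of the other lists overlapped, and the part of any list was not tested.

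**Figure D4:**
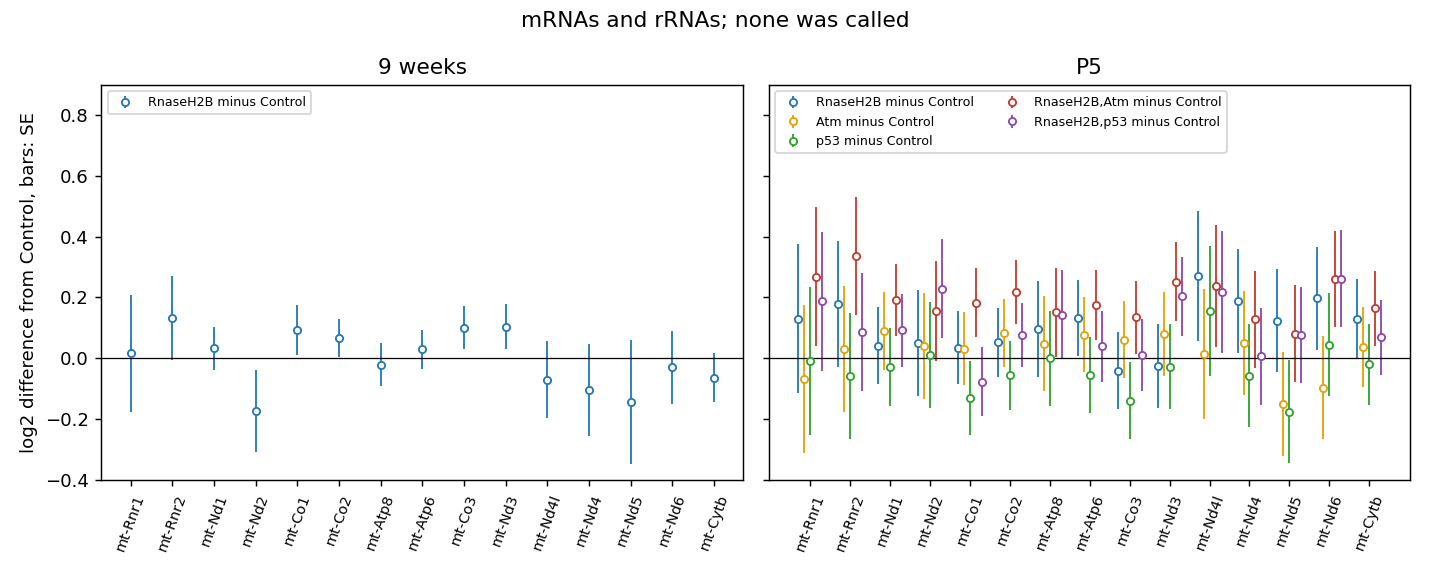
Log2 difference from Control (points) with its SE (bars) for the 13 mRNAs and 2 rRNAs at 9 weeks (left) and P5 (right), by genotype. None passed limma's test; the RnaseH2B,Atm Nes-cre points at P5 are all above 0, from 0.08 to 0.34.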

How the data were processed

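Per the labels, RNA of whole cerebellum was extracted with TRIzol. The P28 libraries were poly-A enriched, whereas the P5 and 9-week libraries held total RNA and are titled as stranded. The P28 labels also name a total RNA kit. The tools named in the submitters' processing notes are limma, HTSeq, STAR, Trim Galore and BWA, and the genome build is mm9. Roles, versions and the use of strand in counting are not given in the sources used here. The authors deposited log2 CPM per gene for each age, and FPKM values as a second scale. At 9 weeks the deposited FPKM are another, shifted scale with 30976 values below 0, and both code ranges of libraries have equal gene means, within 3.12e-09 log2 CPM. At P5, rows naming no gene held 19.7 to 31.8% of a library (median 24.5%) and were left out.

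Features with at least 1 CPM in at least 7 (9 weeks), 5 (P28) or 3 (P5) libraries were tested, 15078, 16530 and 15421 in all, with limma 3.58.1 (trend) in R 4.3.3, all groups of an age in 1 fit, Benjamini-Hochberg adjustment over all tested features and a threshold of 0.05. Ages were never joined. Whole reads were recovered from P28 and P5 values, 100% of them within 0.01 of a whole number, for a voom fit with TMM. The scripts were tested on simulated data. Replicate numbers did not pair the samples. Genes named are all mt- mRNAs and rRNAs, tRNAs that were called or lie at an end of the range, and from other lists up to 4 called genes with the smallest p plus Rnaseh1, Tfam, Polrmt and Lrpprc. Members and lists were chosen with earlier results of these data known. Alternatives left out single replicates, changed scale, filter and normalization, and added a block or covariates. Sequences were matched by symbol to GENCODE M21 (GRCm38). P-values printed with few replicates come from limma's fit over all features.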

Additional observations from a re-analysis of the deposited data

Results flagged for a closer look

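Single libraries whose gap to the nearest other library, as a part of the range of their group, passed Dixon's critical value were found in 25 of 174 groups of log2 CPM values. For independent values chance flags about 1 in 20 groups, but the genes of a library are not independent, so this rate is no test of the 25. Control replicate 2 at P28 accounted for 9: it was highest for mt-Nd1 (11.7), mt-Nd2 (11.25), mt-Co1 (13.62), mt-Atp6 (11.28), mt-Nd4 (11.55), mt-Nd5 (11.43) and mt-Nd6 (9.19) and lowest for mt-Atp8 (8.0) and mt-Co3 (11.21). RnaseH2B,p53 Nes-cre replicate 4 at P5 was highest for 7: mt-Atp6 (8.13), mt-Cytb (9.06), mt-Nd1 (9.19), mt-Nd3 (7.52), mt-Nd4 (6.74), mt-Rnr1 (10.42) and mt-Rnr2 (13.35). This library also had the largest part of its reads in rows naming no gene (31.8%). At 9 weeks RnaseH2B Nes-cre replicate 5 was lowest for mt-Cytb (10.45), mt-Nd4 (8.66) and mt-Tm (-0.89) and highest for mt-Rnr2 (15.14). Its short-minus-long value of nuclear genes, 0.22, was the highest of the 14 libraries. Control replicate 6 was lowest for mt-Tt (-0.83) and Control replicate 3 highest for mt-Tw (2.75). At P28, RnaseH2B Nes-cre replicate 4 was lowest for mt-Co1 (13.33), and RnaseH2B,Atm Nes-cre replicate 4 was highest for mt-Nd2 (11.71) and replicate 3 lowest for mt-Ts1 (-1.59).

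The effect of the RnaseH2B genotype at P28 differed with the Atm genotype, by limma's test of the difference of effects, for mt-Rnr1 (0.81 ± 0.12, adjusted p = 3.46e-05) and mt-Rnr2 (0.75 ± 0.10, adjusted p = 2.62e-05). It also differed for Polg2 (-0.79, adjusted p = 2.49e-05), Grsf1 (0.42, adjusted p = 6.94e-05), Pprc1, a coactivator of mitochondrial biogenesis (-0.60, adjusted p = 0.000384), and Sdha, the flavoprotein of complex II (0.25, adjusted p = 0.00251). In that test 37.7% of all features were called.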

How the results depend on the processing

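Of 49 calls of mitochondrial genes 30 were kept under every alternative run, 19 were lost under at least 1 and 0 reversed. The rRNA calls were among the 30: mt-Rnr1 stayed between 0.88 and 0.98 and mt-Rnr2 between 0.89 and 0.99 in the compound mutant against Control, and their differences of effects between 0.76 and 0.86 and between 0.69 and 0.79. None of the 11 calls of RnaseH2B Nes-cre against Control at P28 was kept throughout. There the count of 9 mRNAs was 3 with log2(FPKM + 0.1), 3 with log2(FPKM + 1) and 0 to 9 when single replicates were left out, and it was 9 with voom and 7 with the medians of tested genes set equal or with no filter. In the compound mutant against RnaseH2B Nes-cre the count of 0 became 1 with the replicate block, 3 with the length covariate and 0 to 1 leaving out single replicates (1 without RnaseH2B,Atm Nes-cre replicate 4). The difference of effects at P28 went from 0 to 1 with the length covariate. At P5 RnaseH2B,Atm Nes-cre against Control had 4 without both libraries that stood apart. The median mRNA difference from Atm Nes-cre of the compound mutant ran from 0.20 (without Atm Nes-cre replicate 3) to 0.34 over single replicates left out. All other counts (345 of 359) stayed within 1.5 times and all other medians (358 of 359) within the spread between replicates. For mt-Tp and mt-Tw at P5, leaving out RnaseH2B Nes-cre replicate 3 ended both calls, at 0.81 and 1.09, and mt-Tp was also lost without any 1 replicate of RnaseH2B,p53 Nes-cre (1.03 to 1.17). The cause of these shifts was not tested.

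Same-numbered libraries of different groups had mean correlations of deviations of -0.15 at 9 weeks, 0.02 at P28 and 0.01 at P5, and 0 of 14, 5 of 20 and 5 of 20 libraries correlated best with their own number. With the replicate block the total of called features at 9 weeks fell from 3042 to 1390, and the mitochondrial count there was still 0. Depth is unknown at 9 weeks, and groups of 3 or 4 libraries and tRNA levels near 1 CPM limit what P5 can show.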

Other observations

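The FPKM tables hold all 37 mitochondrial genes, 10 tRNAs more than the log2 CPM tables. Among these 10, mt-Td (aspartate) had the highest level at P28, with 0.179 to 2.94 FPKM over the 20 libraries, and at P5, with 0.244 to 2.05. At P5, mt-Tg, mt-Tl2, mt-Tk, mt-Th, mt-Ts2 and mt-Tv were listed at 0 in all libraries.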
